A study of Rattus norvegicus with 8 samples.

Results

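Class I and class IIa histone deacetylases were followed in the lumbar spinal cord of rats after repeated psychological stress. The 8 genes are Hdac1, Hdac2, Hdac3 and Hdac8 of class I and Hdac4, Hdac5, Hdac7 and Hdac9 of class IIa, out of 26514 distinct gene names on the array. The family was selected on measured values, since its stress contrast was known when it was chosen, so the differences between stressed and control rats are given as a description of these animals. A probe, a 60-base oligonucleotide on the array, belonged to a member when the files gave it that gene name, which held for 11 probes of 7 genes.

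Male Wistar rats, 12 weeks old, stood on a platform surrounded by water in daily sessions (water avoidance, WA) on 10 days, and the L6S1 cord was taken 24 h after the last session. Control rats were of the same sex and age and were handled without WA. RNA of 4 stressed and 4 control rats was hybridised to 1-colour Agilent arrays, 1 array per rat. The arrays shared 1 slide, on which row 1 held every stressed rat and row 2 every control, so row and group cannot be told apart.

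Histone deacetylases remove acetyl groups from lysines of histones and other proteins, and acetylated chromatin is in general more open to transcription. Class I enzymes are mostly nuclear. Hdac1 and Hdac2 work in the Sin3, NuRD and CoREST complexes, Hdac3 works with corepressors such as NCoR, and Hdac8 is active without such a complex and deacetylates the cohesin subunit SMC3. Class IIa enzymes have little catalytic activity of their own, bind MEF2 transcription factors and move between nucleus and cytoplasm. Phosphorylation by CaM kinases, protein kinase D and salt-inducible kinases lets 14-3-3 proteins hold them in the cytoplasm.

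One control array stood apart from the others of its group. The 5′ minus 3′ difference, the median over 1885 transcripts of the log2 signal of a 5′ probe minus that of a 3′ probe, centred over the arrays, is a measure of how evenly transcripts were labelled along their length. It was -0.30, 0.22, -0.30 and -0.18 in control replicates 1 to 4 and 0.17, 0.15, 0.17 and 0.09 in stressed replicates 1 to 4. Control replicate 2 thus had the highest value of all arrays, while the other controls lay below every stressed array. On the leading principal component of all tested probes, with 54.1% of the variance, it lay apart from the other controls, on the side of the stressed arrays and beyond all of them (46.1, against -56.2 to -39.4 in the other controls and 8.23 to 34.5 in stressed rats). The mean 5′ minus 3′ difference did not pass an exact two-sided permutation test over all 70 choices of 4 arrays (p = 0.143, adjusted over 3 array measures 0.171, smallest possible p 0.0286). Results are therefore given with and without control replicate 2, and from a fit that holds this 5′ minus 3′ measure as a covariate. Since the other controls all lay on one side of 0 and the stressed rats on the other, the covariate fit leans on control replicate 2.

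Among the deacetylases, Hdac8 was higher and Hdac7 was lower in stressed rats, the latter at 1 of its 3 probes. At a false discovery rate (FDR) of 0.1 in limma over all 23678 tested probes, 2 of the 10 tested member probes were called, beside 3.74% of all tested probes. The call upward was 1 of 5 class I probes, beside 2.77% of all probes called higher, and the call downward was 1 of 5 class IIa probes, beside 0.971% called lower. At an FDR of 0.05 the Hdac7 probe alone was called, beside 0.477% of all probes. In 2 of the 10 member probes, the same ones, the groups did not overlap, beside 12.1% of all probes. Nothing is read from these shares, as the family was chosen with this contrast known. Leaving out any single array other than control replicate 2 left 0 member probes called in limma, with 2 at an unadjusted p below 0.05. The median log2 difference was -0.01 over the class I probes, -0.06 over the class IIa probes and 0.06 over all tested probes. In the same order it was -0.04, -0.08 and 0.00 with quantile normalization, and -0.12, -0.18 and -0.05 with arrays scaled to their medians. In bulk tissue, fewer cells of a type and less RNA per cell cannot be told apart.

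Over all tested probes 885 were called at an FDR of 0.1, 74% of them higher in stressed rats, and the higher share was 58.1% with quantile normalization and 47.2% with arrays scaled to their medians. Median scaling moved the median difference of all probes from 0.06 to -0.05. Leaving out control replicate 2 raised the count to 10036. Leaving out control replicates 1, 3 or 4 lowered it to 37, 0 and 55, and leaving out stressed replicates 1 to 4 lowered it to 0, 0, 49 and 72. At an unadjusted p below 0.05 in limma, 3003 probes were found without control replicate 3, 3421 without stressed replicate 1 and 3466 without stressed replicate 2.

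The probes of Hdac8 and Hdac7 that carry these results are shown as designed on the array, 5′ to 3′ and with no base marked. The Hdac8 probe lies at chrX:90450224-90450283 on the minus strand of rn4, the build of the files. The Hdac7 probes at transcript positions 1698 and 2570 lie at chr7:136510672-136510731 and chr7:136504073-136504132, also on the minus strand, so that the former is nearer the 5′ end of the gene. Exons and untranslated regions were not analysed here, as no annotation of rn4 was used. The Hdac7 sequences are set together because the probes of this gene gave different results. The files place the 3 Hdac7 probes on 3 different transcript models, and each position is counted along its own model.
Hdac8 position 1182: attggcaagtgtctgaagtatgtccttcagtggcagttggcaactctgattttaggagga
Hdac7 position 1698: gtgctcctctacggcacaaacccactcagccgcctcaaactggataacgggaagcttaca
Hdac7 position 2570: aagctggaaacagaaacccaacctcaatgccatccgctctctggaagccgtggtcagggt

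Hdac8, the class I enzyme that acts on cohesin, had log2 signals relative to the 75th percentile of each array of -3.51, -3.22, -3.47 and -3.24 in control replicates 1 to 4 and of -2.92, -2.92, -2.93 and -2.89 in stressed replicates 1 to 4. Every stressed rat was above every control, and the stressed rats lay within a narrow band while the controls fell into a lower and a higher pair. The difference was 0.44 ± 0.09 (SE, n = 4 per group, adjusted p = 0.0697), a fold of 1.36, and its 2 spots gave 0.39 and 0.50. It was 0.49 without control replicate 2 (adjusted p = 0.0042) and 0.31 with the covariate (adjusted p = 0.0924). Over the 19 fits run the difference of Hdac8 ranged from 0.30 to 0.49 and its adjusted p from 0.00175 to 0.226, and it was called in 9 of them. The call was lost with quantile normalization (0.30, adjusted p = 0.108), with normexp background correction (0.31, adjusted p = 0.2), with replicate number as a block (adjusted p = 0.211) and without any single array other than control replicate 2 (adjusted p from 0.145 to 0.226).

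Hdac7, a class IIa enzyme known for its roles in endothelial cells and thymocytes, was measured by 3 probes. At position 1698 the log2 signals were -2.08, -2.07, -2.11 and -2.04 in control replicates 1 to 4 and -2.47, -2.62, -2.67 and -2.45 in stressed replicates 1 to 4. All stressed rats were below all controls, and the controls, replicate 2 included, were nearly alike. The difference was -0.48 ± 0.07 (SE, n = 4 per group, adjusted p = 0.0494), which is 0.719 of the control signal, and the 2 spots of the probe gave -0.43 and -0.52. Without control replicate 2 it was -0.48 (adjusted p = 0.00419) and with the covariate -0.47 (adjusted p = 0.05). Over 18 fits it ranged from -0.59 to -0.38, with an adjusted p from 0.00136 to 0.207, and was called in 9. The call was lost with normexp background correction (-0.38, adjusted p = 0.147), with replicate number as a block (adjusted p = 0.207) and without any single array other than control replicate 2 (adjusted p from 0.105 to 0.174).

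The probe of Hdac7 at position 2570 did not show this fall. Its log2 signals were -4.18, -3.20, -4.04 and -4.10 in control replicates 1 to 4 and -3.70, -3.85, -3.81 and -3.69 in stressed replicates 1 to 4. Control replicate 2 was above every stressed rat and the other controls were below every stressed rat. With all arrays the difference was 0.11 ± 0.21 (SE, n = 4 per group, adjusted p = 0.772). Without control replicate 2 it was 0.34 ± 0.07 (adjusted p = 0.0101), and with the covariate it was -0.38 ± 0.12 (adjusted p = 0.124). It was also below 0 with quantile normalization (-0.08) and median scaling (-0.0021). Over its fits the adjusted p ranged from 0.0101 to 0.995.

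At position 4217, nearest the 3′ end, the Hdac7 log2 signals were -2.21, -1.58, -1.96 and -2.06 in control replicates 1 to 4 and -2.13, -2.18, -2.12 and -2.16 in stressed replicates 1 to 4. Control replicate 2 was again the highest, and control replicate 1 lay below the stressed rats. The difference was -0.19 ± 0.13 (SE, n = 4 per group, adjusted p = 0.422), -0.07 without control replicate 2 and -0.48 with the covariate (adjusted p = 0.0508, over all fits 0.0508 to 0.599). The differences of the 3 Hdac7 probes spanned 0.59 with all arrays, 0.82 without control replicate 2 and 0.10 with the covariate. For comparison, the median span over the 190 gene names with 3 tested probes was 0.37, 0.55 and 0.30 in the same fits. Of these gene names 28.4%, 23.7% and 88.9% in turn had a span at least as wide as that of Hdac7.

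**Figure D1:**
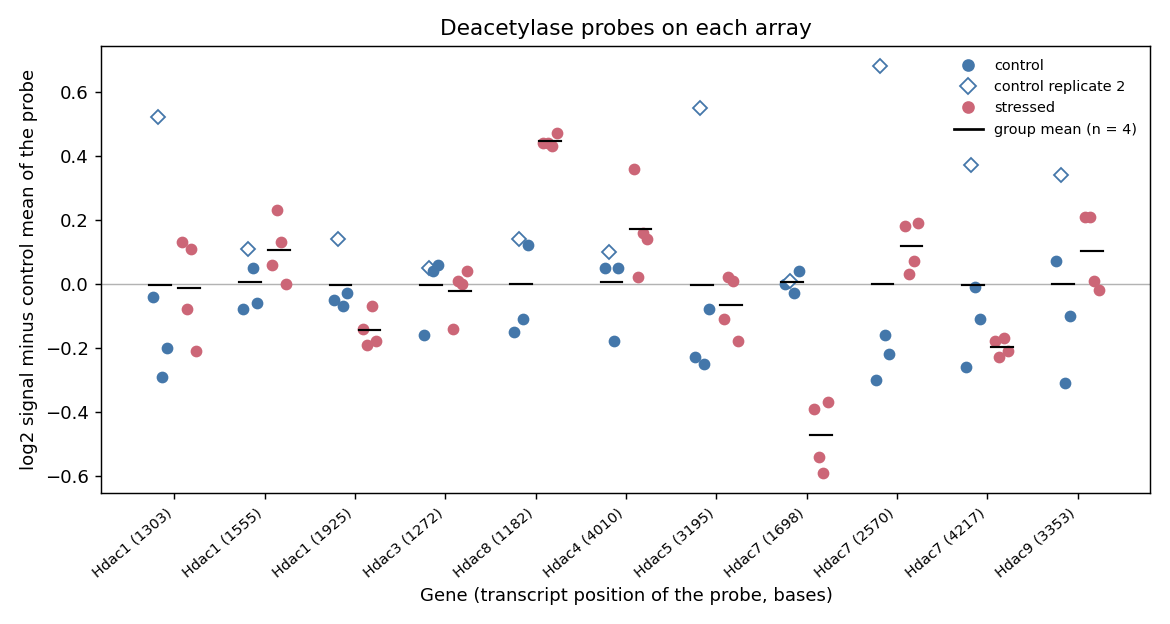
Each point is the log2 signal of a deacetylase probe on 1 array minus the control mean of that probe, for 4 control and 4 stressed rats, with bars at the group means; probes are named by gene and transcript position. Stressed rats lie above all controls at Hdac8 and below all controls at Hdac7 position 1698, and control replicate 2 (open diamonds) is the highest control at most of the other probes.

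The remaining class I genes did not pass the test. Hdac1, a catalytic subunit of several corepressor complexes, had 3 probes with differences of -0.01, 0.10 and -0.14 at positions 1303, 1555 and 1925 (adjusted p = 0.982, 0.486 and 0.312). At position 1303 the log2 signals were -1.01, -0.45, -1.26 and -1.17 in controls and -0.84, -1.05, -0.86 and -1.18 in stressed rats. Control replicate 2 was the highest of all arrays there, and the groups overlapped. The 95% interval of the difference ran from -0.43 to 0.41 at position 1303 and from -0.31 to 0.03 at position 1925. With the covariate Hdac1 at position 1925 was lower in stressed rats (-0.26, adjusted p = 0.0835, over all fits 0.0835 to 0.548), and so it was with median scaling (-0.26, adjusted p = 0.0962). A further probe, annotated in the files as a cluster resembling part of Hdac1 and not under its name, gave -0.09 with no overlap of the groups (adjusted p = 0.454); it was named after its value was seen.

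Hdac3, the catalytic subunit of the NCoR complex, had log2 signals between -0.74 and -0.52 in controls and between -0.72 and -0.54 in stressed rats. The groups overlapped in full, with a difference of -0.02 and a 95% interval from -0.21 to 0.17 (adjusted p = 0.9). The probe of Hdac2, the close paralog of Hdac1, was well above background on 0 of 4 control and 0 of 4 stressed arrays and was not tested. Its processed signal of 3.11 to 4.61 gives no level for Hdac2.

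The remaining class IIa genes did not pass the test with all arrays either. Hdac5, which is exported from the nucleus of neurons after CaM kinase signalling, had log2 signals of -0.24, 0.54, -0.26 and -0.09 in control replicates 1 to 4 and of -0.12, 0.01, 0.00 and -0.19 in stressed replicates 1 to 4. Control replicate 2 was far above all other arrays, and the other controls overlapped with the stressed rats. The difference was -0.06 ± 0.18 (SE, n = 4 per group, adjusted p = 0.853), 0.12 without control replicate 2 (adjusted p = 0.269) and -0.50 with the covariate (adjusted p = 0.0405, over all fits 0.0405 to 0.952). Hdac4, a MEF2-binding paralog of Hdac5, had a difference of 0.17 with a 95% interval from -0.06 to 0.40 (adjusted p = 0.365), and 3 of its 4 stressed rats were above all controls.

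Hdac9 had 0 probes under its own name. A probe under an older locus name carries a transcript that the RefSeq gene table (GRCr8) gives as Hdac9. Its log2 signals ran from -5.27 to -4.62 in controls and from -4.98 to -4.75 in stressed rats, and the groups overlapped (difference 0.10, adjusted p = 0.693). The probe was called in 1 fit, with array weights (0.30, adjusted p = 0.0524), where 11983 of all 23678 tested probes were called. It was at -0.16 with the covariate (adjusted p = 0.538). It is not included in the counts of member probes.

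Without control replicate 2, 3 of the 10 member probes were called at an FDR of 0.1, beside 42.4% of all tested probes: Hdac8, Hdac7 at position 1698 and Hdac7 at position 2570. With the covariate, 5 of 10 were called, beside 10.1% of all tested probes: Hdac8 was higher, and Hdac1 at position 1925, Hdac5, and Hdac7 at positions 1698 and 4217 were lower. The class I median moved from -0.01 to 0.14 without that array and to -0.06 with the covariate, and the class IIa median from -0.06 to 0.12 and to -0.47, where the median of all tested probes was 0.09 and -0.04. Hdac8 and Hdac7 at position 1698 were the member probes called in all 3 fits.

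**Figure D2:**
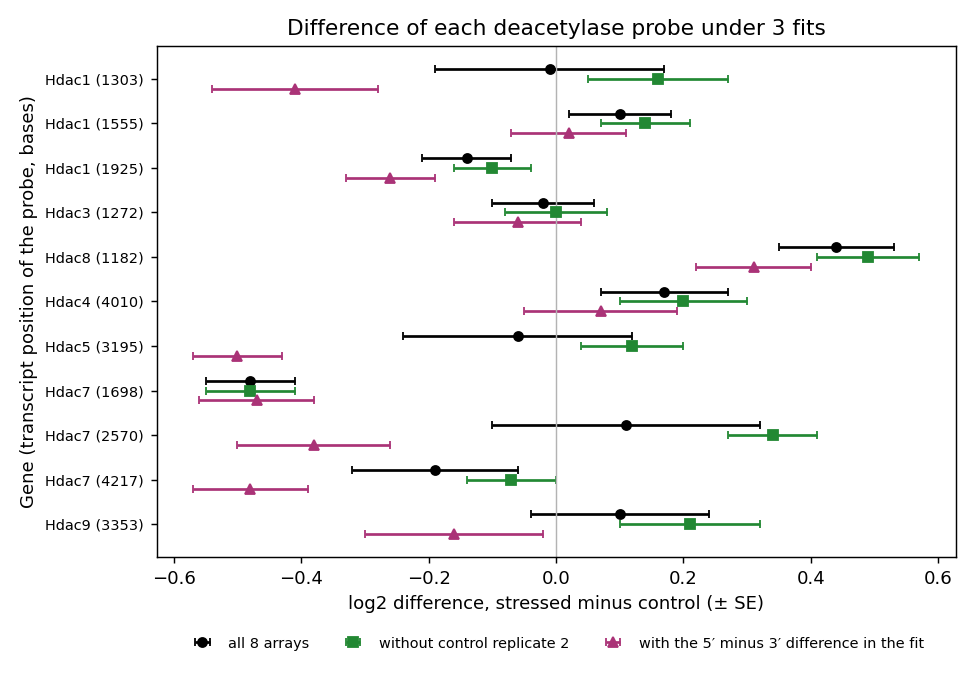
Points are log2 differences, stressed minus control, with bars of 1 SE, for each tested deacetylase probe (gene and transcript position) with all 8 arrays, without control replicate 2, and with the 5′ minus 3′ difference in the fit. Hdac8 stays between 0.31 and 0.49 and Hdac7 position 1698 between -0.48 and -0.47. Hdac1 position 1303, Hdac5, Hdac7 position 2570 and Hdac9 lie on both sides of 0.

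Genes that work with the deacetylases, and other enzymes of acetylation, were taken from 10 lists. These held 78 reported genes, of which 71 were tested by 84 probes, termed partner probes below. At an FDR of 0.1, 4 of these probes rose with stress and 1 fell, which is 5.95% of them, beside 3.74% of all tested probes. Without control replicate 2, 44 were called (52.4%, beside 42.4% of all tested probes), with the covariate 12 (14.3%, beside 10.1%), and without any other single array 0 or 1. Called without control replicate 2 were, higher and lower in turn, 5 and 2 of 13 probes of Sin3, 4 and 1 of 13 of NuRD, 1 and 1 of 5 of CoREST, 1 and 1 of 5 of NCoR, 8 and 3 of 17 of the kinases, 2 and 2 of 6 of 14-3-3 proteins, 5 and 1 of 7 sirtuins, 2 and 4 of 11 acetyltransferases, and 0 and 1 of 3 other deacetylases. With the covariate these were, in the same order, 2 and 1, 1 and 1, 1 and 0, 0 and 1, 1 and 1, 1 and 1, 0 and 1, 0 and 0, and 0 and 0 in limma. The median log2 difference over the lists was 0.05 with all arrays. The medians of single lists ran from -0.19 to 0.23 with all arrays, from -0.15 to 0.31 without control replicate 2 and from -0.26 to 0.07 with the covariate.

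Among partners of the class IIa enzymes, Ywhaz, the zeta isoform of the 14-3-3 proteins, rose. Its log2 signals were 1.87, 2.18, 2.14 and 2.36 in control replicates 1 to 4 and 2.90, 3.06, 2.93 and 2.98 in stressed replicates 1 to 4. All stressed rats were above all controls, with a difference of 0.83 ± 0.11 (SE, n = 4 per group, adjusted p = 0.037), 0.84 without control replicate 2 and 0.76 with the covariate. It was 1 of 6 tested 14-3-3 probes called, beside 3.74% of all tested probes. Ywhab, the beta isoform, differed by -0.33 (adjusted p = 0.138). Ywhab was called at -0.27 without control replicate 2 and at -0.48 with the covariate (adjusted p = 0.0464 and 0.053). In these 2 fits 42.4% and 10.1% of all tested probes were called. Of 17 kinase probes 1 was called, beside 3.74% of all tested probes. The called probe, of the salt-inducible kinase Sik1, rose by 0.35 at position 3963 (adjusted p = 0.0664). The Sik1 probe at position 2502, which the files place on another transcript model, gave 0.78 (adjusted p = 0.394). At that position it gave 1.30 without control replicate 2 (adjusted p = 0.00615) and -0.48 with the covariate (adjusted p = 0.123). Camk2d, the delta chain of CaM kinase II, gave 0.48 and 1.16 at its probes (adjusted p = 0.285 and 0.203). These were 0.71 and 1.65 without control replicate 2, both called (adjusted p = 0.00472 and 0.000524), and -0.06 and 0.05 with the covariate, where neither was called. None of the 4 probes of MEF2 factors was called in limma with all arrays, without control replicate 2 or with the covariate, and with all arrays the difference was -0.22 for Mef2d and 0.13 for Mef2c. Over all fits, 2 of the 4 probes were called in 1 fit each, Mef2c among them (lowest adjusted p 0.0534, and 0.228 for Mef2d).

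In the corepressor complexes, 1 probe of Sin3 and 1 of NuRD were called with all arrays, beside 3.74% of all tested probes. That share was 42.4% without control replicate 2 and 10.1% with the covariate. In the Sin3 complex 1 of 13 probes was called: Arid4b, a chromatin-binding subunit, rose by 1.55 at position 4899 (adjusted p = 0.0877; 0.65 with the covariate) and gave 0.26 at position 2345 (adjusted p = 0.152), where it was called without control replicate 2 (0.31, adjusted p = 0.00962). Suds3 gave 0.43 with all arrays (adjusted p = 0.412). It was called in opposite directions in the other fits, at 0.74 without control replicate 2 (adjusted p = 0.00242) and at -0.30 with the covariate (adjusted p = 0.0731). In NuRD 1 of 13 was called: Rbbp4, a histone-binding subunit shared with Sin3, rose by 0.56 at position 1634 (adjusted p = 0.0853; 0.28 with the covariate) and gave 1.59 at position 552 (adjusted p = 0.172), which was 2.17 without control replicate 2 (adjusted p = 0.000625) and 0.27 with the covariate (adjusted p = 0.493). The files place both Rbbp4 probes on the same transcript model. They map the former to the minus strand of chromosome 5 and the latter to the plus strand of chromosome 2. Whether the 2 probes read the same locus was not tested. Gatad2b gave 0.66 (adjusted p = 0.29) and was not called in either of those fits. None of the 5 CoREST probes reported was called in limma with all arrays, with 0.79 for Rcor3 and 0.34 for Rcor1 (adjusted p = 0.245 and 0.34). They were at 1.14 and 0.15 without control replicate 2, where Rcor3 was called (adjusted p = 0.00381), while with the covariate they were at -0.06 and 0.74 and Rcor1 was called (adjusted p = 0.0582). In the NCoR complex, which is reported in part, Tbl1xr1 gave 0.48 and Tbl1x gave 0.05 and -0.21 at positions 1622 and 4977 (adjusted p = 0.161, 0.869 and 0.258). Tbl1xr1 was called without control replicate 2 (0.63, adjusted p = 0.00108), and Tbl1x at position 4977 with the covariate (-0.41, adjusted p = 0.0414).

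Among other enzymes of acetylation, Hdac10, a class IIb enzyme that deacetylates polyamines, fell. Its log2 signals were -1.76, -1.86, -1.51 and -1.71 in controls and -2.08, -2.25, -2.19 and -2.10 in stressed rats, without overlap. The difference was -0.45 ± 0.09 (SE, n = 4 per group, adjusted p = 0.0765), -0.49 without control replicate 2 and -0.33 with the covariate, where it was not called (adjusted p = 0.116). Hdac6, the tubulin deacetylase of the same class, gave -0.19 (adjusted p = 0.302). With all arrays, none of the 7 sirtuin and none of the 11 acetyltransferase probes was called in limma, beside 3.74% of all tested probes. The differences were 0.51 for Sirt2, 0.39 for Sirt7, -0.60 for Kat2a, and 1.98 and 0.09 for Kat2b at its probes. Without control replicate 2, 42.4% of all tested probes were called. Among them were Sirt2 (0.77), Sirt7 (0.60), Kat2a (-0.85) and Kat2b at position 550 (2.78, from 1.98), with adjusted p = 0.0093, 0.00266, 0.00232 and 0.000885. With the covariate, where that share was 10.1%, these were at -0.14, -0.08, -0.07 and 0.14, and none was called.

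**Figure D3:**
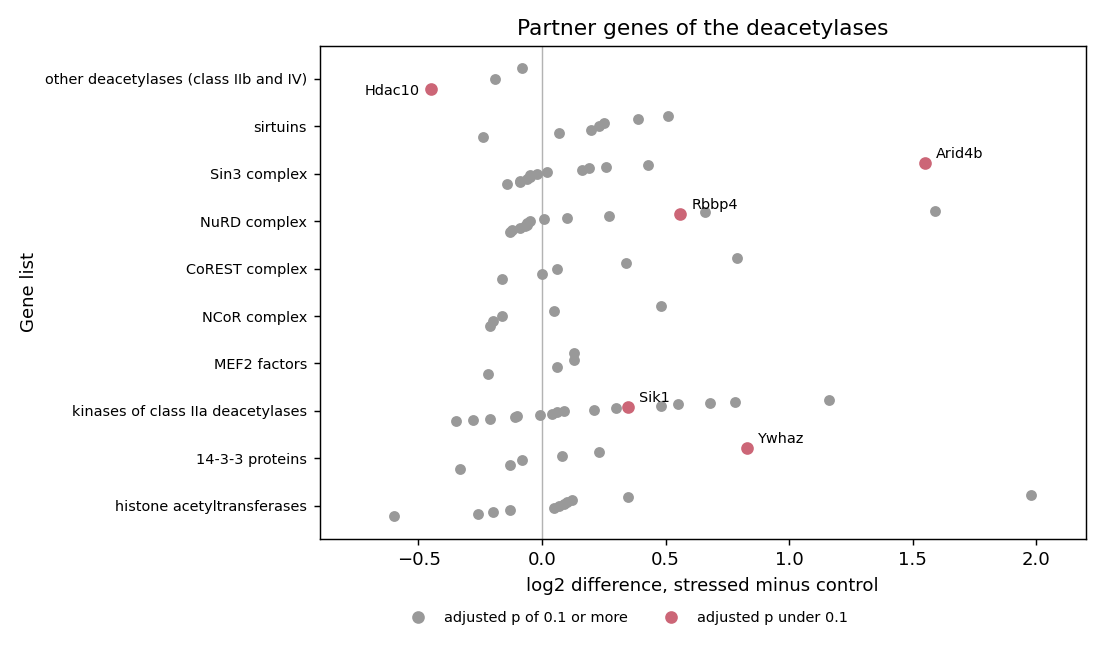
Each point is the log2 difference, stressed minus control, of a tested probe of a partner gene or another enzyme of acetylation. Rows are lists, and probes at an adjusted p under 0.1 are red and named. Of 84 probes 5 are red, among them Ywhaz at 0.83 and Hdac10 at -0.45.

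Markers of the cell types of the cord were measured beside these genes. The median log2 difference was -0.01 for neurons, -0.01 for motor neurons, 0.36 for astrocytes, 0.13 for oligodendrocytes, 0.16 for their precursors, 0.02 for microglia, 0.14 for endothelial cells, -0.32 for meningeal fibroblasts, -1.03 for Schwann cells and -0.03 for red blood cells. In the same order it was 0.06, -0.10, 0.46, 0.20, 0.26, 0.11, 0.30, -0.42, -1.03 and 0.12 without control replicate 2, and 0.02, 0.02, -0.05, -0.05, -0.04, -0.24, -0.02, 0.03, -0.44 and -0.43 with the covariate. Leaving out control replicate 1 moved the median of Schwann cells to -0.35 and that of meningeal fibroblasts to 0.00. These medians were -1.76 and -0.65 without control replicate 4, and -1.57 and -0.55 without stressed replicate 3. Without stressed replicate 3 the median was 0.03 for oligodendrocytes and 0.06 for endothelial cells. Without control replicate 2, where 42.4% of all tested probes were called, the called probes were 7 of 12 for astrocytes and 4 of 11 for oligodendrocytes, all higher, 4 higher and 1 lower of 9 for endothelial cells, and 3 higher and 2 lower of 10 for neurons. With the covariate, where 10.1% of all tested probes were called, 2 neuron probes were called higher and 2 lower, and no probe of the other 3 lists in limma. With all arrays, 3.74% of all tested probes were called. The called markers were then Eno2 of neurons (-0.37, at 1 of its probes), Mog of oligodendrocytes (0.90) and Pecam1 of endothelial cells (0.40). Of the 9 endothelial probes Pecam1 was the 1 called, and the linear signals of the list, scaled to the 75th percentile, summed to 9.03 ± 0.811 in controls and 8.99 ± 0.665 in stressed rats (SD, n = 4 each). Slco1a4, the largest term of that sum, gave -0.16 and the other 8 probes gave 0.03 to 0.40. The summed signal of Schwann cell markers, with Pmp2 its largest term, was 3.9 in control replicate 1 and ran from 0.214 to 0.655 in the other controls and from 0.182 to 0.967 in stressed rats. The part of cell composition in the changes of Hdac7 and Hdac8 was not tested.

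By sequence, the promoters of the family fall apart. In the RefSeq promoter windows of 300 bases (GRCr8), found for all 8 genes, GC content was 60.7% for Hdac5, 66% for Hdac3, 67% for Hdac4, 70% for Hdac2, 71% for Hdac1 and 72.7% for Hdac7, but 41.3% for Hdac8 and 37% for Hdac9. The median over 33469 rat promoters was 51.7%. The letters GGGCGG, read on both strands, occurred 5 times in the window of Hdac1, 3 times in Hdac3 and in Hdac4, 1 time in Hdac2 and in Hdac5, and 0 times in Hdac7, Hdac8 and Hdac9, while 33.1% of all promoters held them. Both genes with a called probe were thus without this motif in the window, one with a GC-rich and one with a GC-poor promoter, and nothing about a binding factor follows from it.

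Over the 8 arrays, the gene symbols whose pattern was most like that of Hdac1 at position 1925 were Msrb2, Atic and Aph1a (Pearson r = 0.984, 0.982 and 0.978). For Hdac5 they were Cenpn, Atg7 and Afg3l1 (r = 0.995, 0.991 and 0.983). For Hdac7, at position 4217, its probe with the highest mean, they were Srrm1, Abcc4 and Nr1d1 (r = 0.981, 0.979 and 0.978). These are descriptions of 8 arrays that share a slide, and control replicate 2 is the highest array for Hdac1, Hdac5 and Hdac7 at these positions.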

How the data were processed

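The deposited scanner files hold, per the file headers, intensity values that the authors obtained with Agilent Feature Extraction 10.7.3.1, with background subtracted. The deposited value table holds the same intensity to within 0.05. Of 62976 spots 4259 were controls and were left out, and the other 58717 carry 30367 probes. Here, log2 signals were reduced by the 75th percentile of each array (1751 to 2335), outlier spots were set to missing and spots of a probe averaged. Probes well above background in at least 0.5 of their spots on at least 4 of 8 arrays were tested. Groups were compared with limma 3.58.1 in R 4.3.3 with data.table (1.17.8), two-sided, with Benjamini-Hochberg adjustment over all tested probes, after tests on simulated data. Tables and plots used Python 3.11.15, numpy 2.4.6, pandas 2.3.3, scipy 1.17.1 and matplotlib 3.10.9. The number of arrays limits the precision.

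Single measures of an array were compared by two-sided exact permutation. By this exact test the 75th percentile (p = 0.114) and the number of probes well above background (p = 0.171) did not pass. The number of outlier spots was 308 to 349 in controls and 380 to 452 in stressed rats, without overlap, and was not tested. The 5′ minus 3′ difference used probes at least 300 bases apart. Named genes were all member probes, called genes of each list and, up to 2 a list, those with the largest differences, and the 3 symbols most like Hdac1, Hdac5 and Hdac7. Of the listed genes 3 are not reported here and are left out of the counts, medians and plot of the lists. Members, lists and alternatives were chosen with earlier results of these data known. Alternatives were normexp (offset 50), quantile and median scaling, the deposited values, other filters on dim probes, array weights, a replicate block, the covariate, a single probe for each symbol, and omission of each array in turn.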

Additional observations from a re-analysis of the deposited data

Results flagged for a closer look

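Of 82 groups of 4 arrays examined, 8 had an array that lay apart. Its gap to its nearest neighbour, divided by the group's range, was above Dixon's 95% critical value for 4 values. Chance would put 4.1 groups there if the groups were independent. The groups reuse the same 8 arrays, so the comparison of 8 with 4.1 is no test. Control replicate 2 was the array apart in 5 of the 8 groups. The gap was 0.862 of the range for Hdac7 at position 2570, where control replicate 2 was at -3.20 and the other controls at -4.18 to -4.04. For Rbbp4 it was 0.939 at position 552 (-2.01 against -4.43 to -4.29) and 0.905 at position 1634 (1.85 against 1.35 to 1.39). It was 0.868 for Kat2b (-3.31 against -6.76 to -6.30) and 0.835 for the leading principal component (46.1 against -56.2 to -39.4).

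Control replicate 1 lay apart for Hdac3 (gap 0.895, -0.74 against -0.54 to -0.52) and for Gatad2b (gap 0.881, -3.67 against -2.85 to -2.74). Control replicate 3 lay apart for Sik1 (gap 0.836, -1.47 against -1.38 to -1.36).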

How the results depend on the processing

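With 4 arrays a group, the counts of calls moved with the processing, and the cause was not tested. For all probes, the member probes and the partner probes in turn, the counts at an FDR of 0.1 were 885, 2 and 5. They were 215, 0 and 1 with normexp background correction, 11983, 3 and 49 with array weights, and 2390, 5 and 12 with the 5′ minus 3′ covariate. Without a filter on dim probes 3010 probes were called, and with median scaling 3 member probes, Hdac1 at position 1925 (-0.26) among them, and 8 partner probes. Quantile normalization and 1 probe per gene symbol left 1 member probe each. Leaving out single arrays gave 0 to 10036 probes, 0 to 3 member probes and 0 to 44 partner probes. With the replicate number as a block, limma called 0, 0 and 0, beside 4292, 2 and 19 at an unadjusted p below 0.05. The deviations of same-numbered arrays correlated at 0.10, 0.12, -0.09 and 0.31, so the numbers were not taken as a pairing.

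Hdac8 and Hdac7 at position 1698 kept their direction in all fits that tested them. The sign changed for probes that were not called with all arrays: for Hdac1 at position 1303 to 0.02 with normexp, 0.18 with array weights and up to 0.16 without single arrays (from -0.11); for Hdac1 at position 1555 to -0.04 with quantile and -0.01 with median scaling; for Hdac5 to 0.13 with array weights and from -0.15 to 0.12 without single arrays, the highest without control replicate 2; and for Hdac3 from -0.07 to 0.02 without single arrays. Hdac7 at position 2570 changed to -0.08 with quantile, -0.0021 with median scaling and -0.38 with the covariate, and it was called without control replicate 2 (0.34) and with array weights (0.29). Hdac9 changed to -0.11, -0.01 and -0.16 in those 3 fits, was from -0.00032 to 0.21 without single arrays, and was called with array weights (0.30). Hdac5 was called with the covariate (-0.50). Of all 23678 tested probes, 11983 were called with array weights, 10036 without control replicate 2 and 2390 with the covariate. Hdac2 was not well above background on any array, which limits what its signal can show.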
